A study of Mus musculus with 6 samples.

Results

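A set of 10 mouse genes of MHC class I antigen processing and presentation was followed in 4T1 cells treated with P3FI-90. They were taken by symbol from a table of read counts per gene, in which 22116 rows carried a gene name, and 10 of 10 were found. The genes were the heavy chains H2-K1, H2-D1 and H2-Q4, the light chain B2m, the peptide transport and loading genes Tap1, Tap2 and Tapbp, the immunoproteasome subunits Psmb8 and Psmb9, and the transcriptional regulator Nlrc5. All 10 were among the 12288 genes that passed the filter on low counts.

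MHC class I molecules carry short peptides from proteins made inside a cell to its surface, where CD8+ T cells and natural killer cells read them. Proteasomes cut the proteins, and in cells exposed to inflammatory cytokines their constitutive catalytic subunits are exchanged for immunosubunits. The TAP transporter then moves the peptides into the endoplasmic reticulum, tapasin and its partners load them onto the complex of heavy chain and beta-2-microglobulin, and tumour cells often carry little of this machinery.

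4T1 is a mouse mammary carcinoma line from a BALB/c mouse, used as a model of triple-negative breast cancer. RNA was measured in 2 groups of 3 libraries each, from cells given the solvent DMSO or 10 µM P3FI-90, an inhibitor of the histone demethylase KDM3B, for 24 h. No other allele, agent or time point is named in the labels, the line is a single tumour-derived model, and the 3 libraries of a group are not tied to separate cultures by the labels, although the study says in general that experiments were repeated independently, so the p-values measure the spread between these libraries, which may be technical. The libraries held 31327094 to 37395732 counts on named genes.

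Transcripts changed across most of the transcriptome. Of the genes tested, 79.3% passed an adjusted p of 0.05 in edgeR's quasi-likelihood test, 39.9% higher and 39.4% lower after P3FI-90, and the median log2 fold change of all genes tested was 0.01. Scaling factors were 0.927 to 0.93 in the DMSO libraries and 1.08 in the P3FI-90 libraries, so directions of small changes depended on the scaling. Scaling by total counts alone moved the median of all genes to 0.23 and the split to 6179 higher and 3641 lower, from 4908 and 4841. Kdm3b, which encodes the enzyme the compound inhibits, was at a log2 difference of 0.13 (SE 0.043, adjusted p = 0.0169). That call was lost in 4 of the 15 alternatives, among them leaving out DMSO replicate 1 (0.11), P3FI-90 replicate 2 (0.11) or P3FI-90 replicate 3 (0.12). Inhibition of an enzyme need not alter its own transcript, so this value does not check the labels.

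All 9 epithelial markers that were tested fell, and their summed level went from between 163000 and 172000 normalized counts with DMSO to between 70200 and 73400 with P3FI-90, with Krt7 at a log2 fold change of -2.33. Of 12 leukocyte markers, 6 were at 0 in every library, Cd4 and Adgre1 among them. The leukocyte sum was 30.6 to 82 normalized counts with DMSO and 135 to 147 with P3FI-90, and most of it was Csf1r, which counted 34, 52 and 27 reads against 114, 147 and 128; its exons overlap those of Hmgxb3, which rose by 0.71 on the log2 scale. The sum over the 10 class I genes was 37900 to 39000 normalized counts with DMSO and 58200 to 60200 with P3FI-90. Whether any part of it came from leukocytes was not tested. The fibroblast sum was 1410 to 1450 and 1000 to 1100, and the endothelial sum 0 to 13.3 and 21.6 to 33.7. Most of the fibroblast sum was Pdgfra, which fell (log2 fold change -0.50), while Lum was at 0 in every library. Among the endothelial markers Pecam1 passed as higher (2.10), with 0, 0 and 13 reads against 20, 17 and 27. The part of the epithelial shift in the class I values was not tested, and in bulk RNA fewer cells of a type and less RNA per cell cannot be told apart.

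The DNA before the start sites of the heavy chains and B2m is shown first, since these promoters carry the elements through which NF-kappaB, interferon regulatory factors and the CCAAT-binding factor NF-Y are known to act on class I genes. RefSeq promoter windows of 300 bases (250 before and 50 from the start site onward, build GRCm38.p6) were found for 8 of the 10 genes, all but Tap2 and Nlrc5. They are sequences of the C57BL/6J reference strain, not of BALB/c, and were read with the motifs chosen in view of them. Capitals mark matches, on either strand, to the kappaB form (GGG, any pair of bases, TT, any base, CC), to 2 forms of the interferon-stimulated response element (GAAA or GAA, any pair of bases, GAAA), and to CCAAT.
H2-K1, chr17:34000298-34000597, minus strand: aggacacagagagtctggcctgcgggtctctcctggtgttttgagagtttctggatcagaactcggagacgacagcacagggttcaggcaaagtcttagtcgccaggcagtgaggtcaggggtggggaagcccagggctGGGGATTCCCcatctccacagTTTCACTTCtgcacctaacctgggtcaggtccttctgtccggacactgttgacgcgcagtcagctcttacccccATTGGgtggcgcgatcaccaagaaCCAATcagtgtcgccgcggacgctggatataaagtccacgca
H2-D1, chr17:35262844-35263143, plus strand: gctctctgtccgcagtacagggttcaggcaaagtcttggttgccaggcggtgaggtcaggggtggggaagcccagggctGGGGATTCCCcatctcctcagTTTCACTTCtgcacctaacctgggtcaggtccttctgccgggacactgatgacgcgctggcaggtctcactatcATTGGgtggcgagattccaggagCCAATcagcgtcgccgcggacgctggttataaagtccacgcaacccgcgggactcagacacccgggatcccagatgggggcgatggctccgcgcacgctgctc
H2-Q4, chr17:35379367-35379666, plus strand: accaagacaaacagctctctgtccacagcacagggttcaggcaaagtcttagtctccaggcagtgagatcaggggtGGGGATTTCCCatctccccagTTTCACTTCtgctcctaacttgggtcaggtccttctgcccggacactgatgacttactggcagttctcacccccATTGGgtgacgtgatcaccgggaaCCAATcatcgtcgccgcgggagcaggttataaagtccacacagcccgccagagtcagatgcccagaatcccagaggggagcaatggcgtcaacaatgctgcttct
B2m, chr2:122147437-122147736, plus strand: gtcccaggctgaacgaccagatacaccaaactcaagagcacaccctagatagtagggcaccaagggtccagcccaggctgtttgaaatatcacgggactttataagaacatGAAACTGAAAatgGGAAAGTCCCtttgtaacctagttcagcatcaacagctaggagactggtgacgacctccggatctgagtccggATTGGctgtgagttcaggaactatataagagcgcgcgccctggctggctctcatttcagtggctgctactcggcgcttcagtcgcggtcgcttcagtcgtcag

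In each of the 3 heavy chain windows a kappaB match was followed by TTTCACTTC, the second interferon element form read on the other strand. Counted from the start site, the kappaB match began at -111 in H2-K1, at -171 in H2-D1 and at -174 in H2-Q4, where a second kappaB match began at the next base. These positions depend on the start site listed for each gene. The ATTGG match was shifted likewise, from -76 in H2-D1 to -16 in H2-K1. The order was reversed in B2m, in which GAAACTGAAA stood from -139 to -130 and a kappaB match on the minus strand from -126 to -117. Among 32851 promoter windows of the same length, 4.79% held the kappaB letters, 3.44% the interferon element form with GAAA on both sides, 7.52% the shorter form and 37.4% CCAAT. Without gaps, the H2-K1 and H2-D1 windows were identical at 73.3% of 240 aligned bases, and those of H2-D1 and H2-Q4 at 49.8% of 297. Those of H2-K1 and H2-Q4 were identical at 39.1% of 253 bases, and those of H2-K1 and B2m at 33.1% of 263. An ungapped comparison falls out of line at any insertion or deletion, so these values can understate the likeness.

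Tap1 and Psmb9 lie head to head. Their start sites were 225 bases apart and their windows shared 275 bases, so a single window serves for both; it is printed on the Tap1 strand with CCAAT in capitals.
Tap1, chr17:34187306-34187605, plus strand: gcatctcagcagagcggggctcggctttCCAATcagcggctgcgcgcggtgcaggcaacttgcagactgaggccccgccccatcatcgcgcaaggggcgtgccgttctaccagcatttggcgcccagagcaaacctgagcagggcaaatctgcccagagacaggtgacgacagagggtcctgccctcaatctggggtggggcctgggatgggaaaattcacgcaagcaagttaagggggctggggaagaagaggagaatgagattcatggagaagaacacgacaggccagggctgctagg

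The letters of the interferon element and kappaB forms were not in the windows of Tap1, Psmb9, Tapbp or Psmb8. Psmb8 held 1 match to the gamma-activated sequence form TTCNNNGAA, which 8.3% of windows held. Such matches describe letters in a window and not bound sites.

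**Figure D1:**
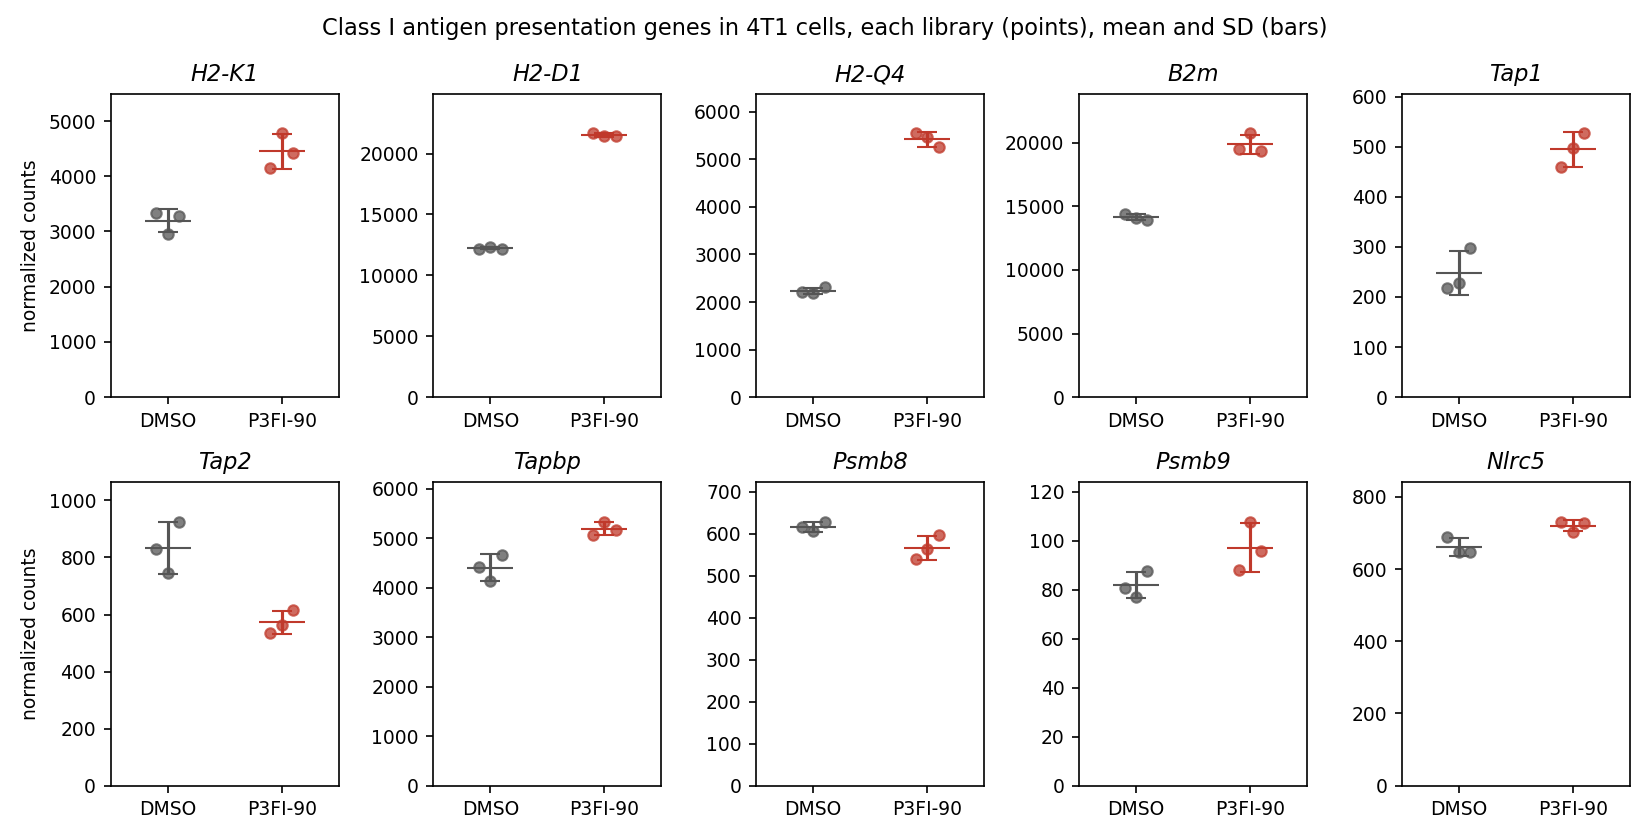
Normalized counts of the 10 genes in each library (y axis, from 0, a scale for each gene), with points for the 3 DMSO and the 3 P3FI-90 libraries and bars for the mean and SD. H2-K1, H2-D1, H2-Q4, B2m, Tap1 and Tapbp rose, Tap2 fell, and Psmb8, Psmb9 and Nlrc5 did not pass the test.

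Of the 10 genes, 6 rose, 1 fell and 3 did not pass the test, beside 39.9% of all tested genes that rose and 39.4% that fell. The 3 P3FI-90 libraries lay all above the DMSO libraries for 8 genes and all below for 2, without overlap for any; over all genes tested, 81.2% did not overlap, 41% all above and 40.2% all below. The median log2 fold change of the 10 genes was 0.36. The share of the genes that passed, 7 of 10, was near that of all genes tested, so the results lie in the direction and size for each gene and in how partner genes moved against each other, as the plot of normalized counts by library shows.

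The heavy chains, which form the peptide-binding groove, all rose. Levels are given here as normalized counts, that is, counts scaled to a common effective library size, in the order of replicates 1 to 3. H2-K1, a classical heavy chain, was at 3337, 2952 and 3286 normalized counts with DMSO and at 4141, 4782 and 4423 with P3FI-90. The groups did not overlap, and the lowest value was DMSO replicate 2. H2-K1 rose 1.39-fold (log2 fold change 0.48, SE 0.058, adjusted p = 3.16e-06), which placed it at percentile 71.6 of the changes of all genes tested.

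H2-D1, the other classical heavy chain, was at 12145, 12298 and 12174 normalized counts with DMSO and at 21674, 21450 and 21425 with P3FI-90. The libraries of each group lay close together, and the groups were far apart. H2-D1 rose 1.76-fold (log2 fold change 0.82, SE 0.028, adjusted p = 5.07e-12). H2-Q4, a nonclassical heavy chain of the Qa region, was at 2210, 2184 and 2311 normalized counts with DMSO and at 5552, 5467 and 5253 with P3FI-90. It had the highest log2 fold change of the 10 genes, 1.28 (SE 0.042, adjusted p = 2.91e-12), a 2.43-fold rise at percentile 91.0 of all genes tested.

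B2m encodes beta-2-microglobulin, the light chain that every class I heavy chain needs to fold and reach the surface. It was at 14391, 14052 and 13940 normalized counts with DMSO and at 19469, 20741 and 19346 with P3FI-90, without overlap. B2m rose 1.41-fold (log2 fold change 0.49, SE 0.034, adjusted p = 7.59e-09), about as much as H2-K1 and less than H2-D1 and H2-Q4 in fold.

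Class I heavy chains are close paralogs, and the way the counting split reads between them was not given in the sources used here. Of the 50-base windows in their annotated transcripts, 9.63% in H2-K1, 12.8% in H2-D1 and 36.4% in H2-Q4 also occurred in another gene, in H2-Q4 most often in Gm11131 (15.3%). BALB/c cells carry the d haplotype of this locus and the reference genome the b haplotype, so reads from 4T1 alleles were placed on other alleles, and the d haplotype holds a further heavy chain, H2-L, that the reference strain lacks. The single heavy chain values are therefore uncertain where reads could be shared. The level was next summed over 22 H2 heavy chain genes, of which 17 had counts. It was 21500 to 21700 normalized counts with DMSO and 37800 to 38400 with P3FI-90. Reads placed on none of these genes, as may hold for some from H2-L, are outside the sum. The sum rose 1.76-fold in normalized counts (log2 fold change 0.82, SE 0.026, adjusted p = 2.29e-12). Its share of all named counts was 0.057 to 0.0575% with DMSO and 0.116 to 0.118% with P3FI-90. The scaling factors do not enter that share, so it changed by more than the normalized counts did.

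Within that sum, the makeup shifted. H2-D1 held 56.5% ± 0.635 (SD, n = 3) of heavy chain counts with DMSO and 56.6% ± 0.709 with P3FI-90. The H2-K1 share was 14.7% ± 0.907 and 11.7% ± 0.751, and that of H2-Q4 10.4% ± 0.289 and 14.2% ± 0.351. The H2-Q1, H2-Q2, H2-Q5, H2-Q6 and H2-Q7 share was 6.34% ± 0.13 and 11.1% ± 0.1. Thus the Qa genes took up a larger share, H2-K1 a smaller one, and that of H2-D1 differed by less than the spread between replicates.

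Ratios of 2 genes within a library do not depend on the scaling of libraries. In all, 9 such ratios and shares were compared by two-sided exact permutation tests, whose smallest possible p with 3 against 3 libraries is 0.1, so none could reach 0.05. The H2-D1 to B2m ratio of counts was 0.844, 0.875 and 0.873 with DMSO and 1.11, 1.03 and 1.11 with P3FI-90, a log2 difference of 0.33 (exact p = 0.1, Benjamini-Hochberg adjusted 0.113). The H2-Q4 to B2m ratio was 0.154, 0.155 and 0.166 against 0.285, 0.264 and 0.272, a log2 difference of 0.79 (exact p = 0.1, adjusted 0.113). In both cases the groups did not overlap. The H2-K1 to B2m ratio was 0.232, 0.210 and 0.236 against 0.213, 0.231 and 0.229 and overlapped between the groups, with a log2 difference of -0.01 (exact p = 0.7, adjusted 0.7). The H2-K1 share of heavy chain counts differed by -3.08 percentage points (exact p = 0.1, adjusted 0.113), and by -3.93 where H2-K1, H2-D1 and H2-Q4 alone made up the total.

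Tap1 and Tap2 encode the chains of the heterodimeric peptide transporter, and their transcripts moved in opposite directions. Tap1 was at 218, 229 and 298 normalized counts with DMSO and at 459, 498 and 527 with P3FI-90. The groups were apart, and DMSO replicate 3 was the highest of its group. Tap1 rose 1.99-fold (log2 fold change 0.99, SE 0.13, adjusted p = 6.93e-06). Its exons overlap those of Psmb9, and 3.33% of its 50-base windows occurred elsewhere.

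Tap2 was at 830, 744 and 926 normalized counts with DMSO and at 535, 565 and 616 with P3FI-90. It was the only one of the 10 genes that fell, and every P3FI-90 library lay below every DMSO library. The log2 fold change was -0.54 (SE 0.092, adjusted p = 8.89e-05), and 11.6% of Tap2 windows occurred in another gene, most of them in Gm15821 (9.22%).

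The Tap1 to Tap2 ratio of counts was 0.263, 0.308 and 0.322 with DMSO and 0.857, 0.882 and 0.855 with P3FI-90. The ratio was thus 2.92-fold higher after P3FI-90 (log2 difference 1.54, exact p = 0.1, adjusted 0.113), with tightly grouped P3FI-90 libraries. This ratio and that of Psmb8 to Psmb9 were chosen after the values were seen. Tapbp encodes tapasin, which bridges TAP and the class I complex during loading. It was at 4419, 4129 and 4664 normalized counts with DMSO and at 5073, 5333 and 5171 with P3FI-90. Tapbp rose 1.18-fold without overlap (log2 fold change 0.24, SE 0.044, adjusted p = 2.14e-04), the smallest rise among the 6 genes. In Tapbp, 23.2% of windows occurred in another gene, mostly Gm19412 (20.3%), and its exons overlap Zbtb22.

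Psmb8 and Psmb9 encode the immunosubunits that replace Psmb5 and Psmb6 in the proteasome core, and neither passed the test. Psmb8 was at 615, 606 and 629 normalized counts with DMSO and at 540, 563 and 597 with P3FI-90. Although all P3FI-90 libraries lay lower, the log2 fold change of -0.12 (SE 0.081) had an adjusted p of 0.175, and with total-count scaling it turned to 0.09. Psmb9 was at 81.0, 77.1 and 87.8 normalized counts against 88.0, 108 and 96.0. It was the least abundant of the 10 genes, its groups were just apart, and its log2 fold change was 0.25 (SE 0.21, adjusted p = 0.295). In Psmb8, 11.9% of windows occurred in another gene, mostly Gm20496 (11.6%).

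The constitutive counterparts all fell. Psmb5, the counterpart of Psmb8, was at -0.35 on the log2 scale (SE 0.062, adjusted p = 1.39e-04), and 54.1% of its windows also occurred in another gene. With total-count scaling the Psmb5 value was -0.13 and did not pass. Psmb6, the counterpart of Psmb9, fell by 0.80 on the log2 scale (SE 0.047, adjusted p = 1.46e-09). Psmb7, which Psmb10 replaces, fell by 0.35 on that scale (SE 0.034, adjusted p = 3.19e-07).

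Psmb10, the remaining immunosubunit, was at 1312 ± 29.4 normalized counts (SD, n = 3) with DMSO and 793 ± 25.9 with P3FI-90. It fell by 0.73 on the log2 scale (SE 0.061, adjusted p = 6.58e-08), while Psmb8 and Psmb9 did not pass the test; its difference from either was not tested. Psme1 and Psme2, which encode the subunits of the PA28 activator that caps proteasomes, also fell. Psme1 was at -0.71 (SE 0.057, adjusted p = 3.49e-08) and Psme2 at -0.47 (SE 0.095, adjusted p = 4.20e-04). In Psme2, 28.3% of windows also occurred in Psme2b.

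As ratios of immunosubunit to constitutive subunit, Psmb9 to Psmb6 was 0.0164, 0.0154 and 0.0173 with DMSO and 0.0317, 0.0347 and 0.0346 with P3FI-90, 2.06-fold higher (log2 difference 1.04). The higher ratio went with a fall of Psmb6, while Psmb9 itself did not pass the test. Psmb8 to Psmb5 was 0.223, 0.233 and 0.221 against 0.237, 0.289 and 0.268 (log2 difference 0.23). Psmb10 to Psmb7 was 0.157, 0.144 and 0.15 against 0.112, 0.121 and 0.115 (log2 difference -0.38). The groups did not overlap in any of these 3 ratios, and each had an exact p of 0.1, adjusted 0.113. The pairs therefore did not move one way: the ratio was higher for Psmb8 and Psmb9 and lower for Psmb10. The Psmb8 to Psmb9 ratio was 7.56, 7.81 and 7.13 against 6.11, 5.20 and 6.19 (log2 difference -0.37, exact p = 0.1, adjusted 0.113).

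**Figure D2:**
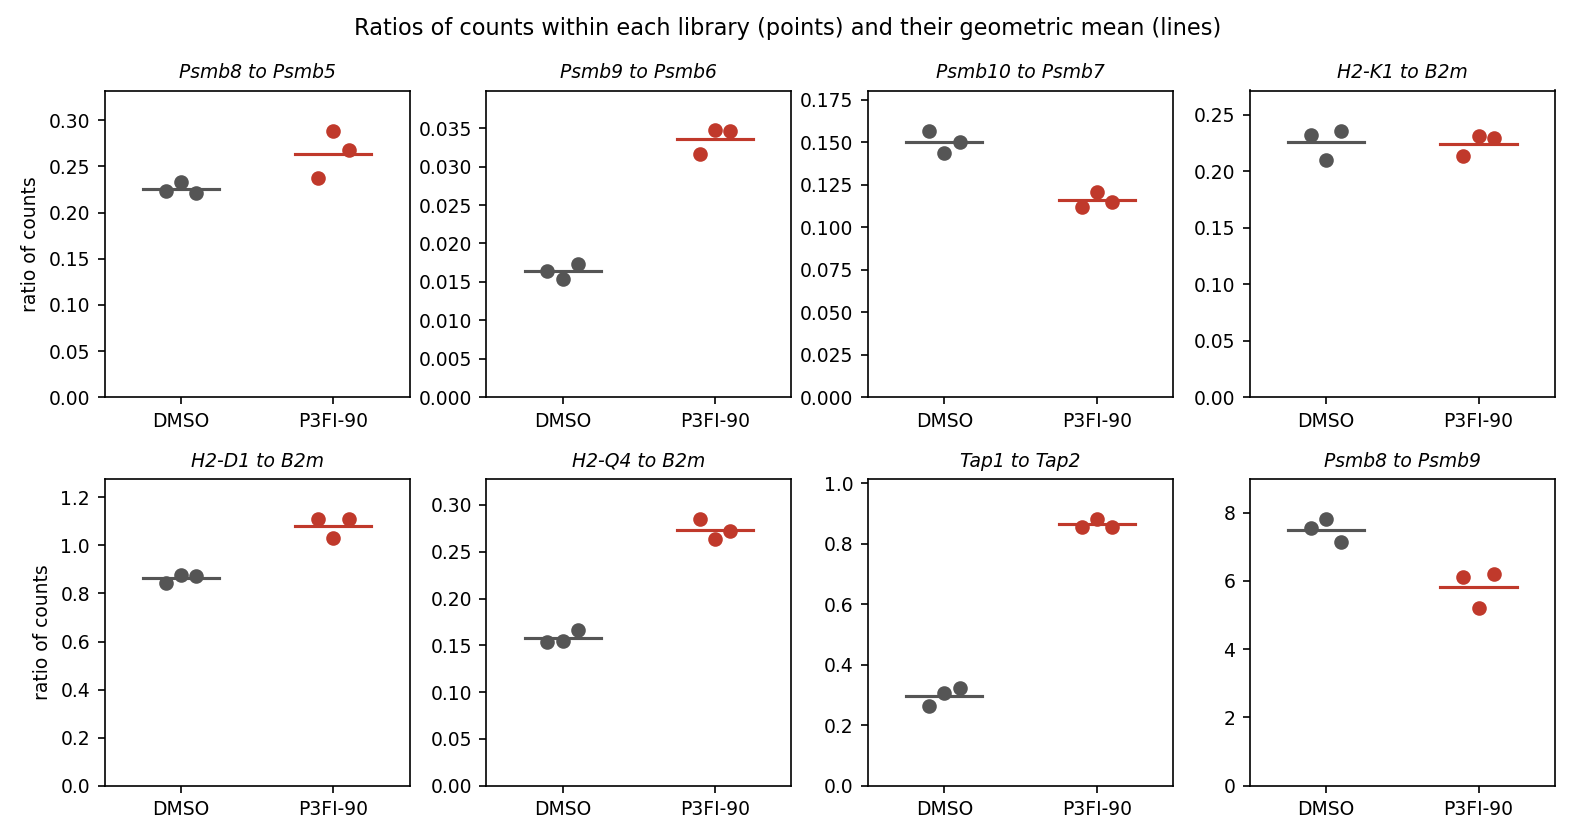
Ratio of raw counts of 2 genes in each library (y axis, no unit, from 0, a scale for each pair), with points for libraries and lines for the geometric mean of each group. The Tap1 to Tap2 ratio went from 0.297 to 0.865 and the H2-K1 to B2m ratio overlapped between the groups.

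Nlrc5 encodes the class I transactivator, which acts at class I heavy chain, B2m and Tap1 promoters together with the RFX complex. It was at 689, 647 and 647 normalized counts with DMSO and at 732, 703 and 728 with P3FI-90. The groups were narrowly apart, and the log2 fold change of 0.12 (SE 0.074) did not pass the test (adjusted p = 0.135). With total-count scaling it was 0.34 and passed (adjusted p = 7.04e-04), in a setting that moved the median of all genes to 0.23.

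Levels can be compared between genes only per length. In normalized counts per kilobase of exon, with exon lengths from the GENCODE M21 annotation, the order with DMSO ran from B2m (16400 ± 273, SD, n = 3) through H2-D1 (4730 ± 31.5), Tapbp (1210 ± 73.9), H2-K1 (1090 ± 71.3) and H2-Q4 (861 ± 25.8) to Tap2 (220 ± 24.0), Psmb8 (182 ± 3.40), Nlrc5 (77.8 ± 2.87), Tap1 (45.3 ± 7.95) and Psmb9 (22.4 ± 1.48). With DMSO no neighbours in this order overlapped, although Tapbp and H2-K1 nearly touched. With P3FI-90 the level of H2-Q4 was 2090 ± 59.3 per kilobase, above H2-K1 at 1510 ± 109 and Tapbp at 1430 ± 36.2, which overlapped each other. Tap2 (151 ± 10.8) overlapped Psmb8 (168 ± 8.43), and Tap1 (90.3 ± 6.28) overlapped Nlrc5 (84.9 ± 1.83). H2-Q4 thus passed from below H2-K1 and Tapbp to above them, while B2m, H2-D1 and Psmb9 kept their places at the ends of the order.

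**Figure D3:**
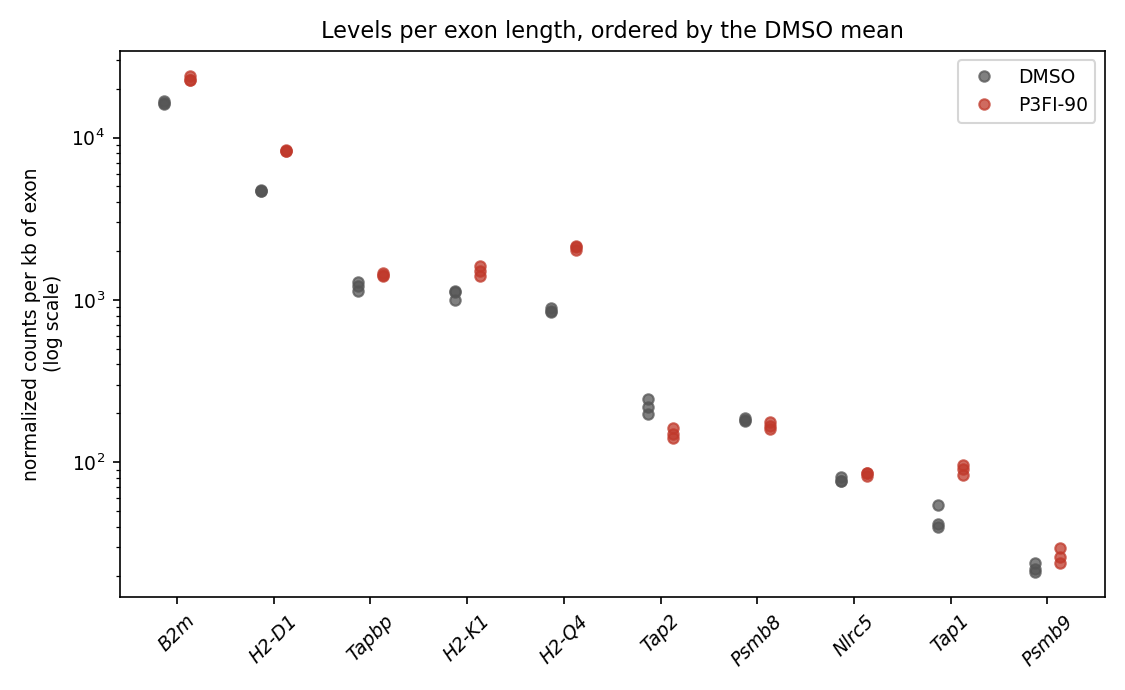
Normalized counts per kilobase of exon (y axis, log scale) of the 10 genes, ordered by the DMSO mean, with a point for each DMSO and each P3FI-90 library. B2m was highest at 16400 with DMSO and 23100 with P3FI-90, and Psmb9 lowest at 22.4 and 26.6.

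The companion genes of the pathway were described with the same fit. They are given by their counts and medians beside the 39.9% higher and 39.4% lower over all genes tested, and the plot of log2 fold changes by group shows them.

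**Figure D4:**
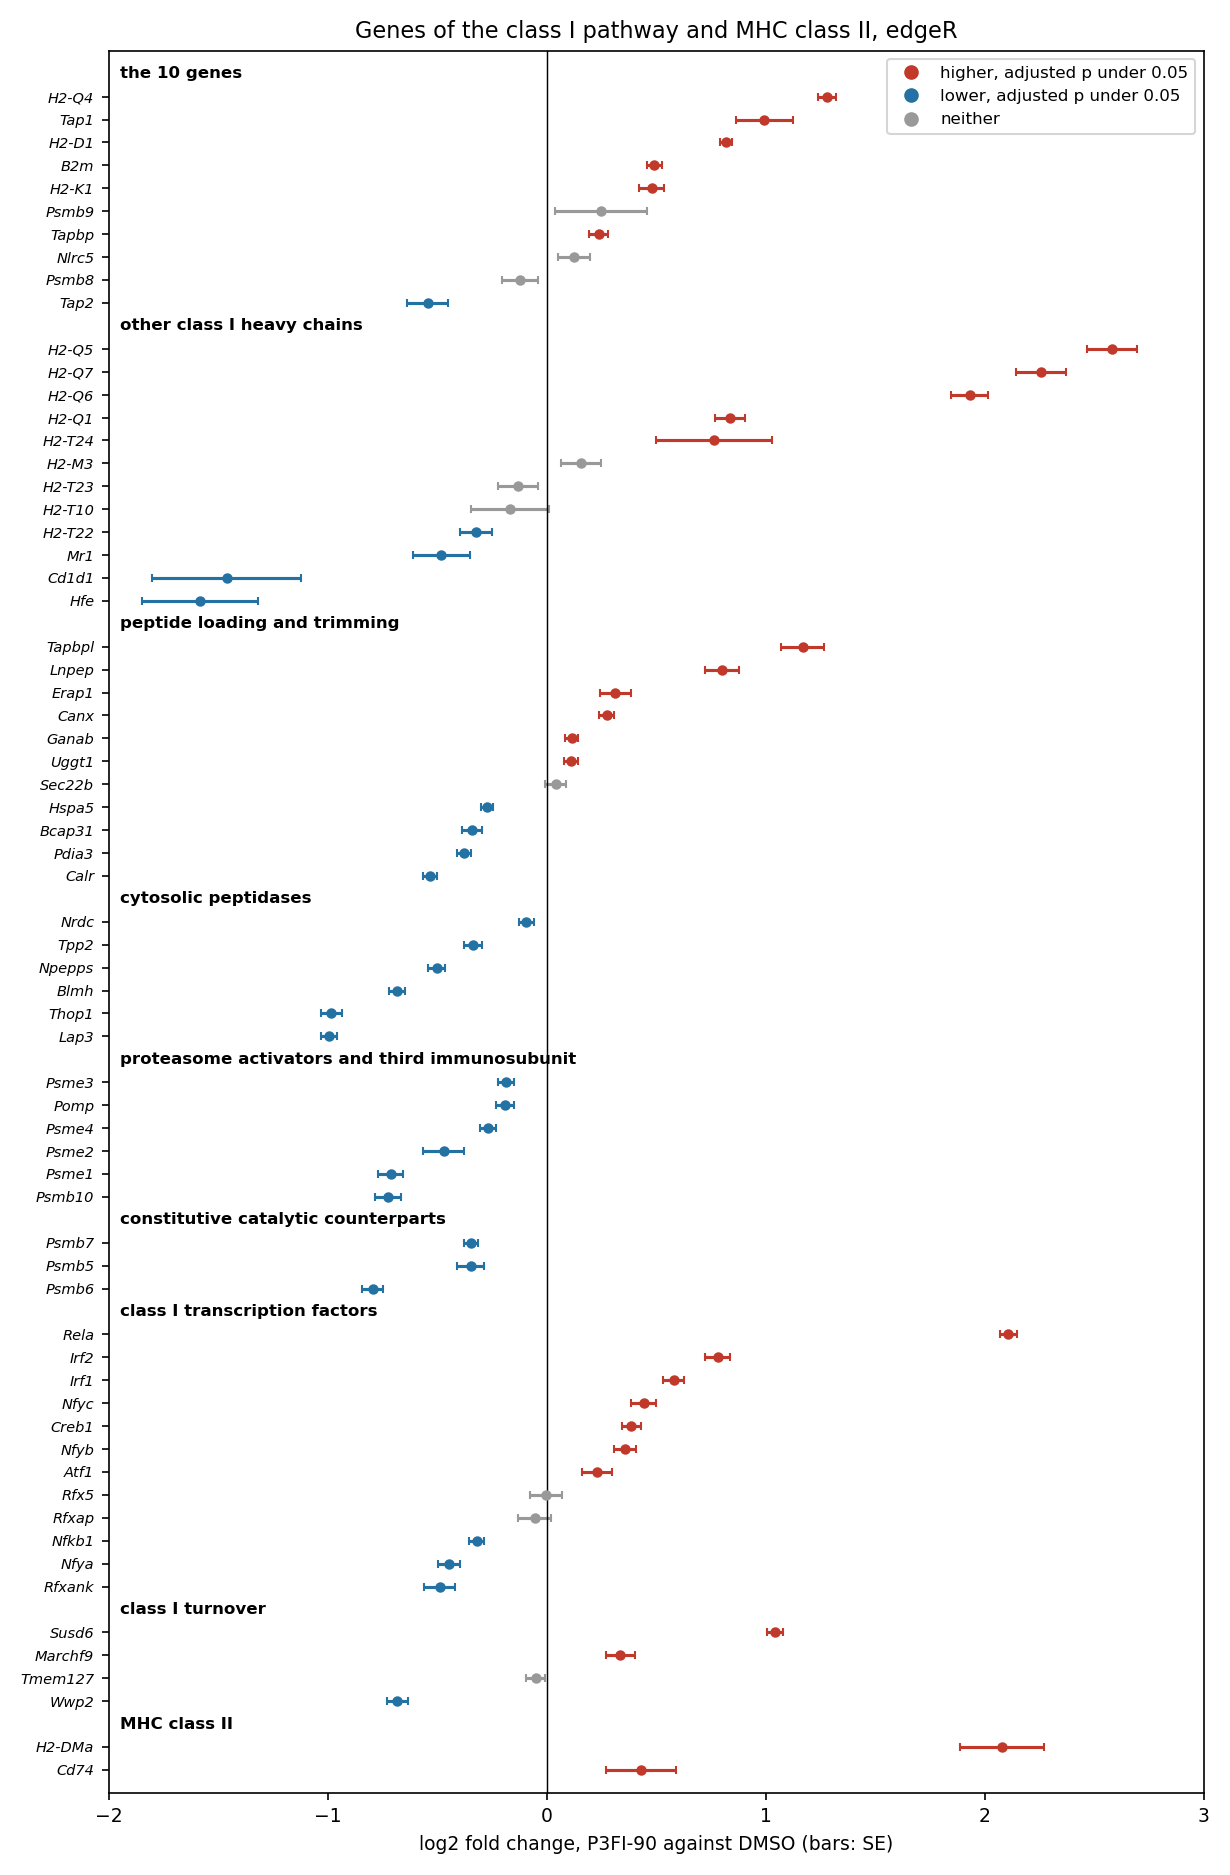
Log2 fold change of P3FI-90 against DMSO (x axis) with its SE (bars) for the 10 genes, their companions and MHC class II genes, in red where higher, blue where lower and grey where the adjusted p was 0.05 or more. H2-Q2, at 0 in every DMSO library, is not drawn; all 6 tested cytosolic peptidases lie to the left of 0.

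Among the other class I heavy chains, 13 of the 23 in the table were tested, of which 6 rose and 4 fell, with a median log2 fold change of 0.15. Those with the highest values were all of the Qa region: H2-Q5 went from 165 ± 29.9 to 985 ± 25.8 normalized counts (log2 fold change 2.58, SE 0.11, adjusted p = 5.73e-11). H2-Q7 had a log2 fold change of 2.26, H2-Q6 of 1.93 and H2-Q1 of 0.84. H2-Q2 had no counts with DMSO and 80, 65 and 71 with P3FI-90, at least 62.9-fold higher against a floor of 3 counts over the group. These genes share 15% (H2-Q1) to 36.4% (H2-Q5) of their windows with other genes, so which of them rose is uncertain. The 4 that fell lie outside the classical and Qa genes. Hfe, which encodes a regulator of iron uptake, went from 124 ± 13.5 to 41.4 ± 13.4 normalized counts (log2 fold change -1.58, SE 0.27, adjusted p = 8.02e-05). Cd1d1, which presents lipids to NKT cells, went from 57.6 ± 5.46 to 20.7 ± 6.66 (log2 fold change -1.46, SE 0.34, adjusted p = 0.00124), and 19.1% of its windows occurred in Cd1d2. Both also passed with total-count scaling. Mr1 (-0.48), which presents vitamin B metabolites, and H2-T22 (-0.32) fell less, and with total-count scaling they were at -0.27 and -0.11 and did not pass. H2-M2 was too low to test, with 0 counts in each DMSO library and 12, 19 and 8 with P3FI-90. Where at least 10 counts in every library were required, which leaves out H2-Q2, 5 of these heavy chains rose. H2-T24, counted among the 6 that rose (0.76), lost its call without DMSO replicate 1, DMSO replicate 2 or P3FI-90 replicate 3.

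Among peptide loading and trimming genes, 6 of 11 rose and 4 fell, with a median log2 fold change of 0.11. The highest value was that of Tapbpl, 1.17 (SE 0.10, adjusted p = 7.55e-08); it encodes TAPBPR, a tapasin-related peptide editor. Lnpep (0.80) and Erap1 (0.31), both aminopeptidases that trim peptides, and the chaperone Canx (0.27) rose as well. In Erap1, 10.7% of windows also occurred in Cast, whose exons overlap those of Erap1. The chaperones Calr (-0.53), Pdia3 (-0.38) and Hspa5 (-0.27), and Bcap31 (-0.34), which escorts proteins out of the endoplasmic reticulum, fell; with total-count scaling Hspa5 was at -0.06 and did not pass. Calr and Pdia3 are partners of tapasin in the loading complex, parts of which thus moved in both directions.

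On the peptide supply side, all 6 cytosolic peptidases tested fell, with a median log2 fold change of -0.59. Lap3 (-0.996), Thop1 (-0.98), Blmh (-0.68) and Npepps (-0.50) had the lowest values; with total-count scaling Nrdc passed the test in the other direction. All 6 proteasome activators and assembly genes, Psmb10 included, fell too (median -0.37), but only 3 of the 6 passed with total-count scaling.

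Of 13 transcription factors that act on class I promoters, 8 rose and 3 fell, with a median log2 fold change of 0.36. Rela, the transactivating NF-kappaB subunit, went from 2835 ± 113 to 12228 ± 262 normalized counts (log2 fold change 2.11, SE 0.039, adjusted p = 1.37e-14). Irf2 (0.78) and Irf1 (0.58), which act in interferon responses, rose also. Rfxank (-0.49), Nfya (-0.45) and Nfkb1 (-0.32) fell. In Rfxank, 29% of windows also occurred in Nr2c2ap, whose exons overlap those of Rfxank. NF-Y is made of the products of Nfya, Nfyb and Nfyc, and Nfyb (0.36, adjusted p = 1.12e-05) and Nfyc (0.44, adjusted p = 5.92e-06) rose while Nfya fell. In Nfyc, 22.2% of windows also occurred in Gm9144. The RFX subunits Rfx5 (-0.00) and Rfxap (-0.06) did not pass. With total-count scaling Rfx5 passed as higher (0.211, edgeR adjusted p = 0.0181), as did Nlrc5, and Rfxap did not pass (0.158, adjusted p = 0.065). Whether any of the factors named acted on the genes above was not tested.

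Of the class I turnover genes, 4 of 5 were tested. Susd6 (1.04) and Marchf9 (0.34) rose, Wwp2 (-0.68) fell, and Tmem127 (-0.05) did not pass. SUSD6, TMEM127 and WWP2 are known to act together in the removal of class I molecules, and their transcripts did not move in 1 direction.

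MHC class II genes served as a contrast, since professional antigen-presenting cells carry them. Only 2 of 11 were high enough to test, and both rose. H2-Ab1, too low to test, counted 17, 5 and 5 reads with DMSO and 0, 0 and 3 with P3FI-90. With no filter on low counts, 2 class II genes passed as higher and 1 as lower. H2-DMa, a peptide exchange factor, rose by 2.08 on the log2 scale (SE 0.19, adjusted p = 1.82e-07), but its exons overlap Brd2. Cd74, the invariant chain, was at 0.43 (SE 0.16, adjusted p = 0.0231), a call lost without DMSO replicate 2 (0.29) or without P3FI-90 replicate 2 (0.34). H2-Aa counted 16, 0 and 0 reads with DMSO and H2-Eb1 20, 0 and 0, and both were at 0 in every P3FI-90 library; Lyz2, a myeloid marker, counted 16 reads in DMSO replicate 1 and 0 in the other libraries. The reads of H2-Aa, H2-Eb1 and Lyz2 stood in DMSO replicate 1 alone, but those of H2-Ab1 stood in every DMSO library. Ptprc, a leukocyte marker, counted 23, 0 and 3 reads with DMSO and 26, 6 and 10 with P3FI-90. Without DMSO replicate 1 the calls of the 10 class I genes did not change. Leaving out that library does not remove the reads of H2-Ab1 and Ptprc in other libraries, and their part in the class I values was not tested.

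The genes whose values across the 6 libraries were most like those of H2-K1 were Kif13a, Nfatc1, Plekhh3, Cdan1 and Mgme1. Likeness was the root mean square difference of log2 normalized counts from the DMSO mean. It was 0.024 for Kif13a and 0.0442 for Mgme1, and 1181 of 10767 candidates lay within 0.15, so the pattern of H2-K1 was a common one.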

How the data were processed

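RNA was measured in 6 libraries of 4T1 cells, 3 given DMSO and 3 given 10 µM P3FI-90 for 24 h, made with an Illumina mRNA-Seq kit and sequenced on a NovaSeq. The authors deposited raw read counts per gene without normalization. The submitters' processing notes name CASAVA, HISAT2, StringTie and the build GRCm39; versions, annotation and strandedness are not given in the sources used here, so sense and antisense reads could not be told apart. Of 22401 rows, 285 assembled transcripts without a gene name (0.483 to 0.556% of counts) were left out.

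Counts were filtered with filterByExpr, scaled by TMM and tested with edgeR 4.0.16 (R 4.3.3) by the quasi-likelihood test, with Benjamini-Hochberg adjustment over 12288 genes and a threshold of 0.05. The study names limma, which was run as an alternative (3.58.1), as was DESeq2 1.42.0. Normalized counts were scaled to the mean effective library size. Ratios carried a pseudocount of 0.5 on raw counts and were compared by exact permutation tests. On simulated counts for 12288 genes with 200 changed, the edgeR step recovered 179, and 126 of 133 changed by 2-fold or more, with 11 false calls. In the data themselves 79.3% of genes tested passed, so the simulated setting was unlike them. It does not measure the false calls or the scaling of these data.

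The 10 genes and the lists were chosen with earlier results of these data known. Besides the 10 genes, the text names the constitutive proteasome counterparts, Psmb10, Psme1, Psme2, Kdm3b, up to 4 genes per direction from each companion list by the size of the change among those that passed with 100 normalized counts in a group, every gene of a list under 5 genes, and the 5 genes most like H2-K1. H2-Q2, H2-M2, H2-T24, Cd1d1, Nfyb, Nfyc, Hmgxb3, Nrdc, Rfx5, Rfxap, low class II genes and the markers were named after their values were seen. Some listed genes enter the counts of their lists but are not reported here by name or drawn. Exon lengths, overlaps and shared windows came from GENCODE M21 and the promoters from RefSeq, both of GRCm38, so no coordinates were given for the counts. Libraries of a group differed from each other by more than sampling noise. Counting error is small at these depths except for genes under 100 counts. Replicate numbers did not pair the libraries (correlations of deviations -0.0214, 0.015 and 0.00491). Alternatives were other scalings, filters and tools, the replicate block and each library left out, and, added after seeing the data, heavy chains summed, counts halved, and the Tap1 to Tap2 and Psmb8 to Psmb9 ratios.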

Additional observations from a re-analysis of the deposited data

How the results depend on the processing

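The calls of the 10 genes kept their direction and side of the threshold in 158 of 160 refits. In all 15 alternatives chosen at the outset 6 or 7 of the 10 rose and 1 fell. The exceptions arose with total-count scaling, in which Psmb8 turned to 0.0915 and Nlrc5 passed at 0.339. Log2 fold changes ranged from 0.421 to 0.693 for H2-K1, 0.779 to 1.03 for H2-D1, 1.24 to 1.49 for H2-Q4, 0.452 to 0.705 for B2m, 0.90 to 1.21 for Tap1, -0.623 to -0.33 for Tap2 and 0.188 to 0.451 for Tapbp. Over all genes, 4618 to 6179 were higher and 3641 to 5080 lower. With the replicate block 6 of the 10 rose and 1 fell, and 4802 genes of all were higher, although the numbers did not pair the libraries; the block changed no call among the 10. The H2-K1 share of heavy chain counts differed by -3.93 percentage points with 3 genes as the total.

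With total-count scaling H2-T10 (0.0448), H2-T23 (0.0838), Nrdc (0.121), Psme3 (0.0278), Pomp (0.0245), Rfx5 (0.211), Rfxap (0.158) and Tmem127 (0.163) also changed sign. Rfx5, near 0, changed sign with DESeq2 size factors (0.00686), at least 10 counts in every library (0.0155), DESeq2 (0.00694), limma-voom (0.00365) and halved counts (0.00704), and lay between -0.0754 and 0.0307 in the leave-one-out refits. The cause of these changes was not tested. Of 943 companion refits, 905 kept direction and side of the threshold. Psmb9 at 64 to 120 counts a library and class II genes near 0 are limited by depth.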
